A study of Mus musculus with 36 samples.

Results

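Rab proteins are small GTPases of membrane traffic, and 45 of the 55 Rab genes on the array passed the detection filter and are described here. Members were the probes whose gene name in the array table is RAB followed by a number and at most 1 letter, so that longer names such as those of Rab GTPase-activating proteins were not members. Probes counted as detected with a detection p-value under 0.05 on at least 4 of the 36 arrays, and the brightest kept probe stood for its gene. Of 101 Rab probes, 72 passed, and 35 of the 45 genes were detected on all 36 arrays. The other 10 Rab genes (Rab25, Rab26, Rab27b, Rab2b, Rab30, Rab36, Rab37, Rab3b, Rab3c and Rab9b) were detected on 0 to 3 arrays and were not tested. The tests ran over all 14416 genes that passed the same filter.

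The RNA came from macrophages grown from the bone marrow of C57BL/6 mice aged 2 to 5 months, either wild-type (wt) animals or animals without the liver X receptors LXRa and LXRb (double knockout, dko). These nuclear receptors sense oxidised forms of cholesterol. Some cultures took up cholesterol crystals during 3 h, and cultures of both kinds were afterwards given 10 mM cyclodextrin (CD), a ring of sugars that takes up cholesterol, for 4 h or left without it. The 4 wt groups (untreated, crystals, CD, crystals then CD) held 5 arrays each and the 4 dko groups held 4 each.

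A Rab protein alternates between a GTP-bound form on a membrane and a GDP-bound form. Exchange factors load it with GTP, GTPase-activating proteins switch it off, and escort proteins and GDI deliver and remove it, while effectors bind the active form. Each Rab marks its own compartment, and in macrophages phagosomes pass from Rab5 to Rab7 as they mature into the lysosomal compartments where ingested crystals are held. The transcript level of a Rab gene says nothing of how much of its protein is active.

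Array medians of the deposited intensity ran from 83.5 to 128, and 15342 to 17892 probes had a detection signal on an array. Precision depends on how many arrays a group had and on the spread of each gene within groups. Among the members this standard deviation ran from 0.12 (Rab11b) to 0.93 (Rab6b). All 10 macrophage markers tested (such as Csf1r and Cd68) were detected on all 36 arrays, with mean levels of 10.45 to 11.41 per array, in normalized log2 intensity. Of 8 T cell markers 2 were kept, Cd247 and Lck, neither detected on all 36 arrays. The others, Cd3e among them, were not detected on enough arrays to be kept. The labels number the wt arrays of each group 1 to 5 and the dko arrays 6 to 9 without saying what a number stands for, so p-values reflect array-to-array spread, part of which may be technical. The arrays also fell into 2 sets that the labels do not name. On 20 arrays the Xist probe read 10.3 to 11.4 and the Y-linked Eif2s3y read 4.17 to 4.61, while on the other 16 Xist read 4.19 to 4.41 and Eif2s3y 8.996 to 10.8. Every wt group held 3 arrays with Xist signal (numbers 1 to 3) and 2 without (numbers 4 and 5), and every dko group held 2 of each, with arrays of both kinds under each dko number. In wt, the arrays with Xist signal lay on slides 1 and 5 and those without on slides 2, 3, 4 and 6, so the Xist division cannot be told apart there from the division of those numbers and slides. The changes of called members on arrays of each kind are given below where they differ by more than 1.5 times, as differences between means of 2 or 3 arrays with no test.

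The 250 bases upstream of the annotated start are shown for 5 members. Rab19, Rab39 and Rab31 were called in both genotypes after crystals then CD, and Rab5b, Rab27a and Rab19 kept their wt call there without any 1 array number. They are written 5′ to 3′ on the coding strand, from RefSeq on the build GRCm38.p6, with capitals for any match to the motifs searched.

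Rab5b (chr10:128696269-128696518, minus strand): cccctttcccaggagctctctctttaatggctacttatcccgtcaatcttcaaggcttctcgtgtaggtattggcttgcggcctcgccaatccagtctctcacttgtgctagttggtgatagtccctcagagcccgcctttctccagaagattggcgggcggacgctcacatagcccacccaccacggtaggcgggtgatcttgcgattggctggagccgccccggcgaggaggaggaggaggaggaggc

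Rab27a (chr9:73063898-73064147, plus strand): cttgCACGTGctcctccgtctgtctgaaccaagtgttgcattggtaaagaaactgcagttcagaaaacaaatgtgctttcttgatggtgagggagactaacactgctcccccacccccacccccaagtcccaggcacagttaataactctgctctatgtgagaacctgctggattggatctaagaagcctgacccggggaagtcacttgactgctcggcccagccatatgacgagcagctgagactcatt

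Rab19 (chr6:39381103-39381352, plus strand): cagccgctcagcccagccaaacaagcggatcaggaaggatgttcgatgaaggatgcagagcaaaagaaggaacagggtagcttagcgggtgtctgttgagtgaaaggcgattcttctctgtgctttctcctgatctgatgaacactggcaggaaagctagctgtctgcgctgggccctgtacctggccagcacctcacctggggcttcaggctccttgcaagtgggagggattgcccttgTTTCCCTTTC

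Rab39 (chr9:53706233-53706482, minus strand): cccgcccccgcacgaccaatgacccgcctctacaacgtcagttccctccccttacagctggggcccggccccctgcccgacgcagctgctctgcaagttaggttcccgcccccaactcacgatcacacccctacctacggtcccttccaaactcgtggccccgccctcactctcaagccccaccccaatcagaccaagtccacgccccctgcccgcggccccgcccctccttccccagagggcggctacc

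Rab31 (chr17:65772753-65773002, minus strand): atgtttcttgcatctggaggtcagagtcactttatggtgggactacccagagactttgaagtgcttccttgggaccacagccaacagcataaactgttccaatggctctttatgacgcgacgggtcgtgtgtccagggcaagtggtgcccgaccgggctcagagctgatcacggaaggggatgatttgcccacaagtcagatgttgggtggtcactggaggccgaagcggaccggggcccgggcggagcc

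Such promoters were found for 41 of the 45 members, and RefSeq lists several starts for some, which gave 53 sequences. The motifs were searched on both strands. The E-box CACGTG was in 5 of the 53 sequences, from 5 members (Rab20, Rab21, Rab23, Rab27a and Rab5a), and in 6.02% of all 32851 promoters of the same length. In the Rab27a sequence shown, 1 of its annotated starts, it is the run in capitals. The sequence of its other annotated start (chr9:73044560-73044809) held no match to the motifs searched. The longer form TCACGTGA, which contains the E-box and is known from lysosomal genes, was in Rab21 and Rab5a and in 0.785% of all promoters. The core of interferon-stimulated elements, TTTC repeated after 2 free bases, closes the Rab19 sequence and was in no other member, against 2.98% of all promoters. The LXR direct repeat, AGGTCA repeated after 4 free bases, was in none of the members' windows and in 0.0152% of all promoters, and an NF-kB sequence, GGGAC directly followed by TTTCC, likewise in none against 0.14%. TGACNNNGC, a core of NRF2 elements, was in 6 of the 53 sequences, from 5 members (Rab43, Rab4b, Rab7, Rab8a and Rab8b), against 10.2% of promoters. The ATF4 composite TGATGNAAT was in Rab21 against 0.816%. A match is a run of letters in this window and not a shown binding site.

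Of the 45 members 13 were called in at least 1 of 12 comparisons of crystals, CD or genotype, where 21.9% of all genes were called in at least 1. The other 32 members passed the test in none. The 13 include Rab17, which passed the detection filter only with arrays of the group where it was called higher. Calls are limma's moderated test with a Benjamini-Hochberg adjusted p under 0.05 over all genes, and a change is a difference of log2 means given with its standard error (SE). The median change over the 45 members was -0.03 for crystals in wt, against -0.01 over all genes, and -0.07 for crystals then CD in dko, against -0.02. The calls depended on how the intensities were processed. Of 22 calls, counting 1 in a comparison added later, 6 passed with median scaling in place of background correction and quantile normalization. None passed with the deposited log2 values, which had neither step, and the direction of all 22 stayed the same. Which of the steps mattered was not tested. In the 9 of these comparisons that set one group against another, the differences of the 32 members that were not called ran from -0.80 to 0.79, both ends being Rab6b.

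**Figure D1:**
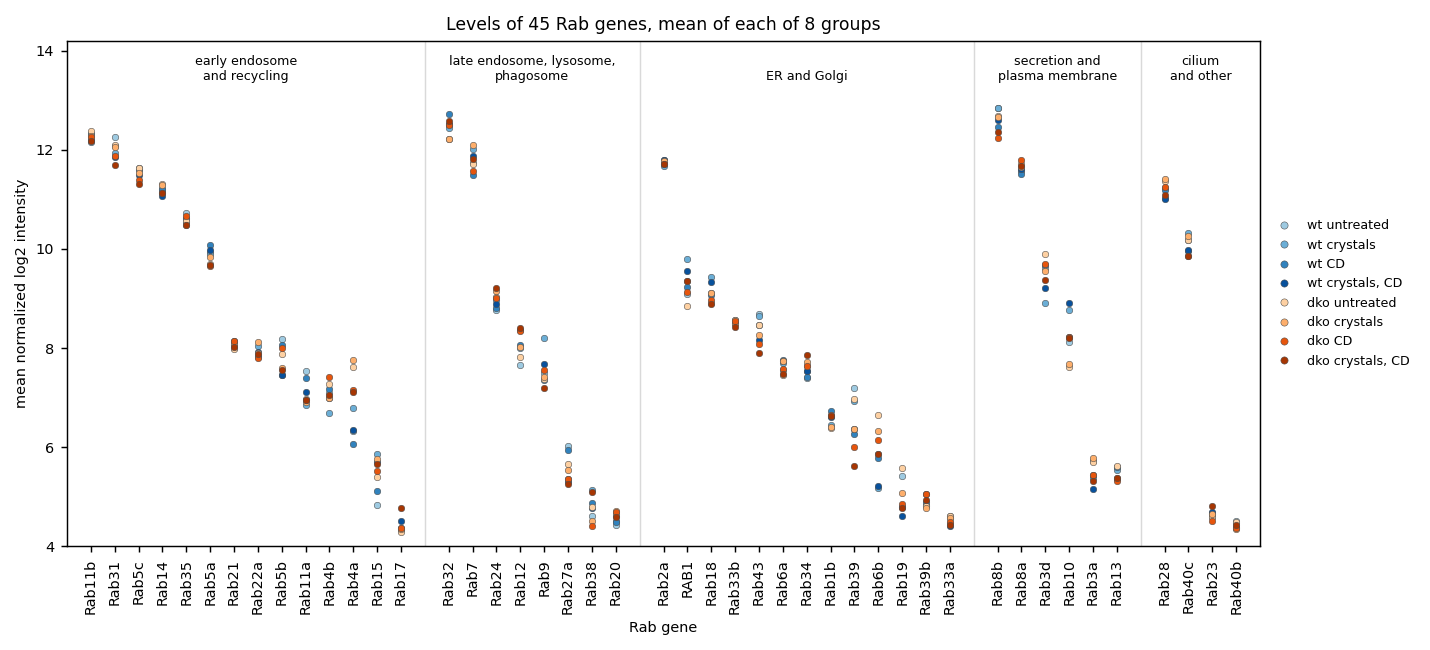
Mean normalized log2 intensity (vertical axis) of each of the 45 Rab genes (horizontal axis, in 5 role groups) in each of the 8 groups, 1 point per group. The points of a gene lie close together next to the differences in brightness between probes, and Rab4a, Rab39 and Rab6b are spread widest, with group means ranging over 1.70, 1.57 and 1.49. Each probe has its own brightness, so levels compare between groups of a gene and not between genes.

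Crystals changed Rab genes in wt macrophages. Of the 45 members 9 were called, 3 higher (Rab15, Rab9 and RAB1) and 6 lower (Rab5b, Rab3d, Rab11a, Rab27a, Rab19 and Rab31), where 14% of all genes were called, and the list was not tested against the other genes. Higher calls took 6.89% and lower calls 7.11% of all genes. The groups did not overlap for 2 members above and 3 below, against 6% and 6.25% of all genes.

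Among the Rabs of the early endosome and recycling, 3 of 14 fell and 1 rose with crystals in wt. Rab5b, an isoform of the Rab that drives fusion of early endosomes, read 8.58, 8.07, 8.44, 8.09 and 7.69 on the untreated wt arrays and 7.71, 7.74, 6.92, 7.46 and 7.43 after crystals. Only the lowest untreated array, number 5, lay within the range of the crystal arrays. Rab5b fell by 0.72 (SE 0.17, adjusted p = 0.00400, limma), a 1.65-fold decrease, and its call held without any 1 number (adjusted p of 0.00346 to 0.0247). A second, dim Rab5b probe, detected on 15 of 36 arrays, gave -0.01. The other isoforms did not pass the test, with changes of -0.03 for Rab5a (SE 0.24) and -0.03 for Rab5c (SE 0.11).

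Rab11a, which directs recycling endosomes to the cell surface, read 7.56, 7.71, 7.47, 7.33 and 7.65 on untreated wt arrays and 6.62, 6.92, 6.80, 6.77 and 7.11 after crystals. All crystal arrays lay below all untreated arrays. It fell by 0.70 (SE 0.21, adjusted p = 0.0222, limma), and the call was lost without number 1, 2 or 3, with a change of -0.74 to -0.64 over the fits and an adjusted p of up to 0.121. Rab11b, its close relative, gave -0.14 (SE 0.09). In dko cells Rab11a differed between arrays with and without Xist signal, at 6.34 to 6.72 on the 8 arrays with it and 7.12 to 7.65 on the 8 without, while its crystal change there was -0.06 (SE 0.24).

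Rab15, a Rab of early and recycling endosomes, read 4.91, 4.40, 4.30, 5.19 and 5.41 untreated and 6.38, 5.46, 5.86, 5.70 and 5.95 after crystals in wt, so every crystal array was the higher. It rose by 1.03 (SE 0.26, adjusted p = 0.00692, limma). Rab15 was detected on 3 of the 5 untreated arrays and on all 5 after crystals, so its untreated level lies near background. The call was lost without number 1 or 3 (adjusted p up to 0.0590). Rab31, a relative of Rab5 that works between the trans-Golgi network and endosomes, fell by 0.32 (SE 0.11, adjusted p = 0.0477), and without any 1 of the 5 numbers its call was lost (adjusted p of 0.0774 to 0.235), as with slide as a block (adjusted p = 0.0951). Rab14, which acts between the Golgi and endosomes, gave -0.06 (SE 0.11).

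In the late endosome, lysosome and phagosome group, 1 of 8 members rose and 1 fell with crystals in wt. Rab27a, which docks secretory lysosomes and exosomes, read 6.29, 6.21, 6.04, 5.82 and 5.76 untreated and 5.23, 5.14, 5.02, 5.74 and 5.68 after crystals. The highest crystal array stood just under the lowest untreated one. Rab27a fell by 0.66 (SE 0.17, adjusted p = 0.00863, limma), and the call was lost without number 1, 2 or 3 (adjusted p up to 0.0857). Within arrays that share a slide, the change of Rab27a was -1.20, -0.02 and -0.89 on slides 1, 2 and 5.

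Rab9, which returns receptors from late endosomes to the Golgi, read 7.97, 7.03, 7.62, 7.04 and 7.77 untreated and 8.33, 8.60, 8.36, 7.81 and 7.95 after crystals, with overlap of both groups. It rose by 0.72 (SE 0.25, adjusted p = 0.0489, limma), close to the threshold, and the call was lost without number 2, 3 or 4 (adjusted p up to 0.311). When all kept probes were tested in place of 1 per gene, the same Rab9 probe had an adjusted p of 0.0531 and its other probe changed by 0.45. Rab7, the Rab of late endosomes and lysosome fusion, gave 0.28 (SE 0.14, adjusted p = 0.210, limma). It had 3 kept probes. The brightest, not called, had mean levels of 11.73 untreated and 11.88 after crystals then CD in wt. With the mean of its kept probes, Rab7 was called higher there by 0.43 (SE 0.15, adjusted p = 0.0460, limma). Rab38, a Rab of lysosome-related organelles, changed by 0.53 with crystals in wt (SE 0.19, adjusted p = 0.0593). Rab32, a partner of Rab38, gave -0.07 (SE 0.12), and Rab20, which acts on phagosomes, gave 0.08 (SE 0.15), neither called.

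Between the ER and the Golgi, RAB1 rose and Rab19 fell in wt. RAB1, which carries the array's own name and drives ER-to-Golgi transport, read 9.42, 8.81, 9.21, 8.99 and 9.03 untreated and 10.24, 10.17, 9.70, 9.45 and 9.42 after crystals. All crystal arrays were above all untreated arrays, the nearest by a few thousandths. RAB1 rose by 0.70 (SE 0.18, adjusted p = 0.00570, limma), and the call was lost without number 2 (adjusted p = 0.0656). A dimmer RAB1 probe changed by 0.29. Rab19, a Golgi-linked Rab, read 5.13, 5.91, 5.54, 5.41 and 5.10 untreated and 4.53, 5.04, 4.47, 4.87 and 5.01 after crystals, and fell by 0.63 (SE 0.21, adjusted p = 0.0387). It was detected on all 5 untreated arrays and on 3 of 5 after crystals. Its call was lost without number 1, 2, 3 or 4 (adjusted p up to 0.224) and with slide as a block (adjusted p = 0.0704), and a second Rab19 probe, detected on 4 arrays, gave -0.22.

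Among the Rabs of secretion and the plasma membrane, 1 of 6 fell. Rab3d, of secretory granules, read 9.26, 9.71, 9.57, 9.90 and 9.63 untreated and 8.45, 8.54, 8.98, 9.30 and 9.30 after crystals in wt. The groups overlapped in part, with the arrays of numbers 1 and 2 lowest after crystals. Rab3d fell by 0.70 (SE 0.17, adjusted p = 0.00487, limma), and the call was lost without number 2 (adjusted p = 0.0622). Rab10, which carries vesicles to the plasma membrane, changed by 0.65 after crystals (SE 0.29, adjusted p = 0.150) and by 0.79 after crystals then CD (SE 0.29, adjusted p = 0.0598) in wt, neither passing limma's test. With array number as a block its adjusted p was 0.0228 and 0.00527. None of the 4 Rabs of the cilium and other sites was called.

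For 7 of the 9 called members the crystal change in wt differed by more than 1.5 times between arrays with and without Xist signal, and it was the larger with it for each of the 7. The pair of values, with signal first, was 0.89 and 0.43 for RAB1, 1.36 and 0.53 for Rab15, -0.85 and -0.32 for Rab19, -1.05 and -0.08 for Rab27a, -0.855 and -0.47 for Rab3d, -0.90 and -0.44 for Rab5b and 0.89 and 0.475 for Rab9.

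In dko macrophages no member was called by limma after crystals, where 0.416% of all genes were. An unadjusted p under 0.05 was reached by 3 of 45 members and by 1168 of all 14416 genes. Members called in wt had dko changes of 0.36 for Rab15, 0.03 for Rab9, 0.51 for RAB1, -0.28 for Rab5b, -0.33 for Rab3d, -0.06 for Rab11a, -0.13 for Rab27a, -0.51 for Rab19 and -0.04 for Rab31. The difference of the crystal effect between the genotypes itself was tested and was called by limma for no member, against 0.0416% of all genes. Of 45 members 1 had an unadjusted p under 0.05, beside 671 of all 14416 genes. A different response of any Rab gene in the 2 genotypes was thus not shown. RAB1 read 8.69, 8.89, 8.84 and 8.96 on untreated dko arrays and 9.52, 9.41, 9.20 and 9.31 after crystals, which do not overlap (as for 4.01% of all genes in this direction), with a change of 0.51 (SE 0.20, adjusted p = 0.397, limma). For Rab38 the crystal effect differed between genotypes by -0.81 (dko minus wt, SE 0.28, adjusted p = 0.737), with changes of 0.53 in wt and -0.28 in dko.

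With limma, CD called no member in any of the 4 comparisons that isolate it. Over all genes, 0.895% were called for CD in unloaded wt cells, 1.71% in unloaded dko, 0% in loaded wt and 1.8% in loaded dko. An unadjusted p under 0.05 was reached by 3, 5, 2 and 9 of 45 members in the same order. Over all 14416 genes it was reached by 1272, 1825, 1042 and 1738. Comparisons of CD and crystals in a genotype share their untreated arrays, and each value is given on its own. The difference of the CD effect between genotypes was called by limma for no member and for 0% of all genes, in unloaded as in loaded cells. An unadjusted p under 0.05 was reached by 1 of 45 members in each, beside 248 and 316 of all 14416 genes.

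For CD in unloaded cells, Rab8b and Rab39 had the lowest adjusted p-values of the 45 members in both genotypes. Rab8b, which directs vesicles to the plasma membrane, read 12.73, 13.00, 12.88, 12.85 and 12.79 on untreated wt arrays and 12.63, 12.64, 12.28, 12.37 and 12.34 after CD. All CD arrays lay below all untreated arrays, as for 1.1% of all genes, and the same was so in dko, as for 3.36%, with 12.65, 12.90, 12.67 and 12.50 untreated and 12.13, 12.38, 11.97 and 12.45 after CD. The change was -0.40 in wt (SE 0.11, adjusted p = 0.0886, limma) and -0.45 in dko (SE 0.13, adjusted p = 0.0582). With Xist signal as a term in the fit, an alternative chosen after seeing the data, the adjusted p was 0.0426 in wt and 0.0282 in dko.

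Rab39, listed here with the Golgi and known in human cells also from phagosomes, read 7.17, 7.12, 6.83, 7.69 and 7.12 on untreated wt arrays and 6.66, 6.56, 6.06, 6.28 and 5.81 after CD. In dko it read 6.66, 7.46, 7.21 and 6.57 untreated and 6.19, 5.69, 5.88 and 6.24 after CD, with no overlap in either genotype. The changes of -0.91 (SE 0.28, adjusted p = 0.123) in wt and -0.97 (SE 0.31, adjusted p = 0.108) in dko did not pass limma's test. Rab19, likewise not called, had mean levels of 5.42 untreated and 4.80 with CD in unloaded wt cells, and 5.58 and 4.85 in dko.

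**Figure D2:**
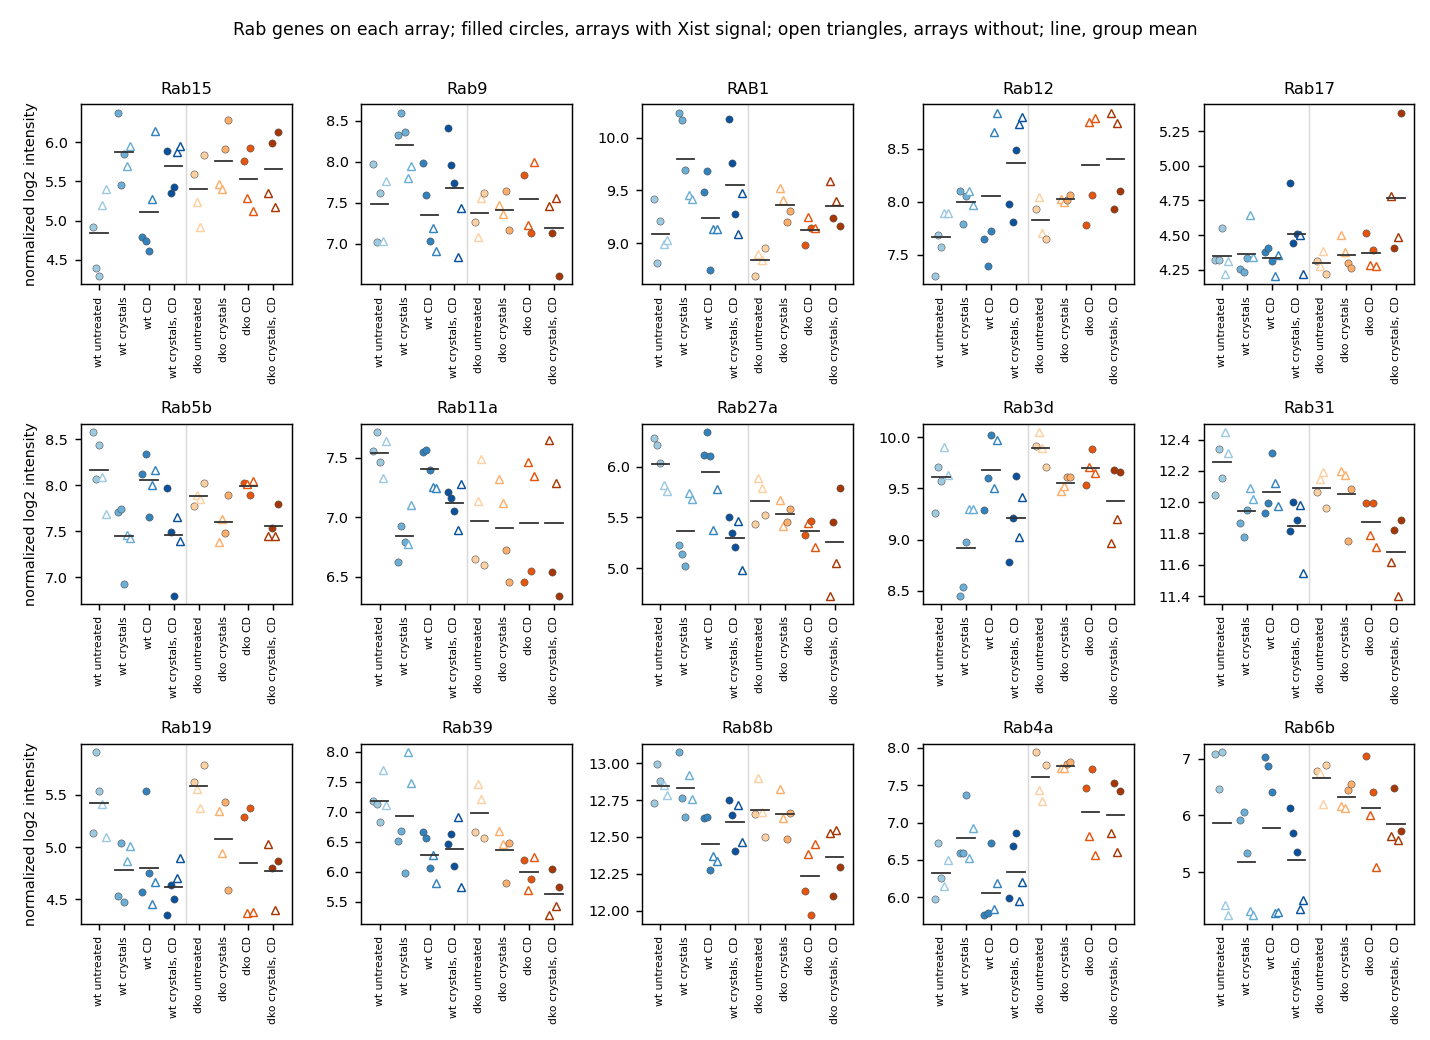
Normalized log2 intensity (vertical axes) on each array for the 13 called members and for Rab8b and Rab6b, by group (horizontal axes), with filled circles for arrays with Xist signal, open triangles for arrays without it and lines for group means. Rab12 after CD lies higher on the open triangles (up to 8.84), and Rab6b in wt lies at 4.24 to 4.51 on the open triangles and from 5.34 to 7.12 on the circles.

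Cells given crystals and then CD, compared with untreated cells, showed 7 called members in wt and 4 in dko, where 16.2% and 8.1% of all genes were called. In wt, 2 rose (Rab15 and Rab12) and 5 fell (Rab39, Rab19, Rab27a, Rab5b and Rab31). In dko, Rab39, Rab19 and Rab31 fell, and Rab17, near the detection limit, was called higher. Higher and lower calls took 7.48% and 8.73% of all genes in wt and 4.07% and 4.02% in dko. Every array of one group lay below every array of the other for 5 wt members and 8 dko members, and above for 0 and 3. All genes gave 6.64% and 6.75% below and 5.74% and 6.47% above. The dko counts of 4 called and 3 above include Rab17, which passed the detection filter only with arrays of this group. Neither count shows a rise of Rab17. These comparisons share their untreated arrays with the crystal and CD comparisons above.

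Rab39 fell the most. After crystals then CD it read 6.47, 6.64, 6.09, 6.92 and 5.75 in wt and 5.27, 6.04, 5.43 and 5.74 in dko, against the untreated values above. Its fall of 1.35 in dko (SE 0.31, adjusted p = 0.00479, limma) was 2.55-fold, with no overlap, and the call was lost without number 8 (adjusted p = 0.0752). In wt Rab39 fell by 0.81 (SE 0.28, adjusted p = 0.0390), and the call was lost without number 1, 2, 3 or 5 (adjusted p up to 0.146) and with slide as a block (adjusted p = 0.127). Rab19 read 4.35, 4.64, 4.50, 4.70 and 4.90 in wt and 5.03, 4.80, 4.40 and 4.87 in dko. All lay below the untreated arrays, where Rab19 had stood at 5.10 or higher in wt and 5.37 or higher in dko. It fell by 0.80 in wt (SE 0.21, adjusted p = 0.00699), a call held without any 1 number but lost with slide as a block (adjusted p = 0.0825), and by 0.81 in dko (SE 0.23, adjusted p = 0.0273), a call lost without any 1 of numbers 6 to 9 (adjusted p of 0.0655 to 0.127). Rab19 was detected on 2 of 5 wt and 3 of 4 dko arrays after crystals then CD, so its level there lies near background.

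Rab31 read 11.81, 12, 11.88, 11.98 and 11.55 in wt and 11.62, 11.82, 11.40 and 11.88 in dko, against untreated values of 12.05, 12.34, 12.16, 12.45 and 12.31 and 12.07, 12.15, 12.19 and 11.96. These groups did not overlap in either genotype. It fell by 0.41 in wt (SE 0.11, adjusted p = 0.00730, limma) and by 0.41 in dko (SE 0.12, adjusted p = 0.0322), calls lost without number 5 in wt (adjusted p = 0.0766) and without number 6, 7 or 8 in dko (adjusted p up to 0.307). Rab27a fell by 0.72 in wt (SE 0.17, adjusted p = 0.00370) and Rab5b by 0.71 (SE 0.17, adjusted p = 0.00398), and both calls held without any 1 number. In dko Rab27a changed by -0.40 (SE 0.20, adjusted p = 0.238) and Rab5b by -0.33 (SE 0.19, adjusted p = 0.372).

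Rab15 rose by 0.86 in wt (SE 0.26, adjusted p = 0.0219, limma), to 5.89, 5.36, 5.43, 5.88 and 5.95, and the call was lost without number 1, 2 or 3 (adjusted p up to 0.0839) and with slide as a block (adjusted p = 0.0903). In dko Rab15 changed by 0.26 (SE 0.30). Rab17, a Rab of polarised epithelia, was detected on 2 of 4 dko arrays after crystals then CD and on none of the untreated ones, so its untreated level is only a bound. It read 4.78, 4.41, 4.48 and 5.38 there, with a high array at number 9. As only 2 of these 4 arrays were detected, no bound on its fold change is given. Its fitted change was 0.47 (SE 0.14, adjusted p = 0.0361, limma), lost without number 6, 8 or 9 (adjusted p up to 0.359). Rab17 passed the detection filter with only 4 of 36 arrays, and 2 of these were in the group where it was called higher. It would not have been tested without them, so the call does not show a rise.

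Rab12, which sends endosomes to lysosomes, rose by 0.69 in wt after crystals then CD (SE 0.24, adjusted p = 0.0418, limma), and the call was lost without number 1, 3, 4 or 5 (adjusted p up to 0.155) and with slide as a block (adjusted p = 0.0567). Its CD response split along the Xist division of the arrays. The change with CD in unloaded cells was 0.86 in wt and 0.90 in dko on arrays without Xist signal, and 0.07 and 0.13 on arrays with it. In loaded cells it was 0.74 and 0.78 without Xist signal and 0.11 and -0.02 with it. These are differences between means of 2 or 3 arrays, chosen after seeing the data, and the difference between the 2 kinds of array was not tested. On single arrays, Rab12 in CD-treated unloaded wt cells was 8.66 and 8.84 where Xist signal was absent and 7.65, 7.39 and 7.72 where it was present.

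Rab39 also differed between the kinds of array. Its change with CD in unloaded cells was -1.36 in wt and -1.37 in dko without Xist signal, and -0.62 and -0.58 with it. In loaded cells it was -1.403 and -1.23 without Xist signal and 0.01 and -0.26 with it.

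After crystals then CD in wt, the change with Xist signal and then without it was -0.94 and -0.36 for Rab5b, -1.03 and -0.45 for Rab19, 1.02 and 0.615 for Rab15, 0.57 and 0.88 for Rab12, -0.64 and -1.07 for Rab39 and -0.28 and -0.615 for Rab31. In dko it was -0.72 and -1.98 for Rab39, -0.16 and -0.66 for Rab31 and 0.63 and 0.30 for Rab17. Each of these pairs had the same sign, but which kind of array gave the larger change differed between members. A fit with Xist signal as a term kept the calls of all 22 called changes of members.

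Genotype changed 1 member in untreated cells. Rab4a, which drives rapid recycling from early endosomes, read 5.97, 6.73, 6.26, 6.14 and 6.50 on untreated wt arrays and 7.94, 7.44, 7.29 and 7.77 on untreated dko arrays. Every dko array was above every wt array, as for 2.33% of all genes, and 0.208% of all genes were called. Rab4a was higher by 1.29 in dko (SE 0.24, adjusted p = 0.0137, limma), 2.45-fold, and the call was lost without number 1 or 6 (adjusted p up to 0.103). On slide 2, the only one that held both groups for this pair, the difference was 0.79. Rab24, a Rab linked to autophagy, likewise did not overlap, with a highest untreated wt array of 8.91 and a lowest dko array of 8.94, but its difference of 0.27 did not pass limma's test (SE 0.12, adjusted p = 0.373).

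The genotype differences of Rab4a in the treated cells, tested in 3 comparisons added after seeing the data, were 1.08 after CD (SE 0.24, adjusted p = 0.0362, limma), 0.97 after crystals (SE 0.24, adjusted p = 0.0623) and 0.77 after crystals then CD (SE 0.24, adjusted p = 0.177). Shares of all genes called were 0.368%, 0.375% and 0.451%. The call after CD was lost without number 1, 2, 4, 6 or 8 (adjusted p up to 0.245) and with slide as a block (adjusted p = 0.0901). On arrays with and without Xist signal the Rab4a difference was 1.502 and 0.68 after CD. Markers of stromal cells and neutrophils also ran higher in dko arrays. Of 8 stromal markers all were kept, with a mean level per array of 5.17 to 6.43 in wt and 6.25 to 7.05 in dko, and of 10 neutrophil markers 5 were kept, with 4.62 to 5.02 in wt and 4.87 to 7.01 in dko, while Elane, Prtn3, Ctsg, Ngp and Ly6g were not. None of these was called for genotype in untreated cells, and their part in the Rab4a difference was not tested. In such cultures more cells of a type and more RNA per cell cannot be told apart.

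Rab6b, an isoform of Rab6 best known from neurons and chosen for mention after its values were seen, divided the wt arrays by number. It read 4.24 to 4.51 on the 8 wt arrays of numbers 4 and 5 and 5.34 to 7.12 on the 12 of numbers 1 to 3. In dko it read 5.72 to 7.04 with Xist signal and 5.09 to 6.76 without. With slide as a block, Rab6b was higher by 1.98 in untreated dko than wt cells (SE 0.32, adjusted p = 0.000633, limma). The fit without slide gave 0.79 and no call. Only the wt arrays of numbers 4 and 5, those without Xist signal, share slides with dko arrays. Untreated dko and wt cells differed by -0.05 on arrays with Xist signal and by 2.15 on those without. Genotype thus cannot be told apart here from the division of the wt arrays. Rab6a, of the same family, was lower on every array with Xist signal in both genotypes, 6.997 to 7.83 against 7.88 to 8.52 in wt and 6.67 to 7.39 against 7.79 to 8.25 in dko. Rab5a in dko likewise read 8.86 to 9.69 with Xist signal and 10.1 to 10.3 without. The ranges of 2 members did not overlap between the 2 kinds of array in wt and of 7 in dko, where 2.23% and 8.73% of all genes did so, and the division was seen in the data, so these values carry no test.

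**Figure D3:**
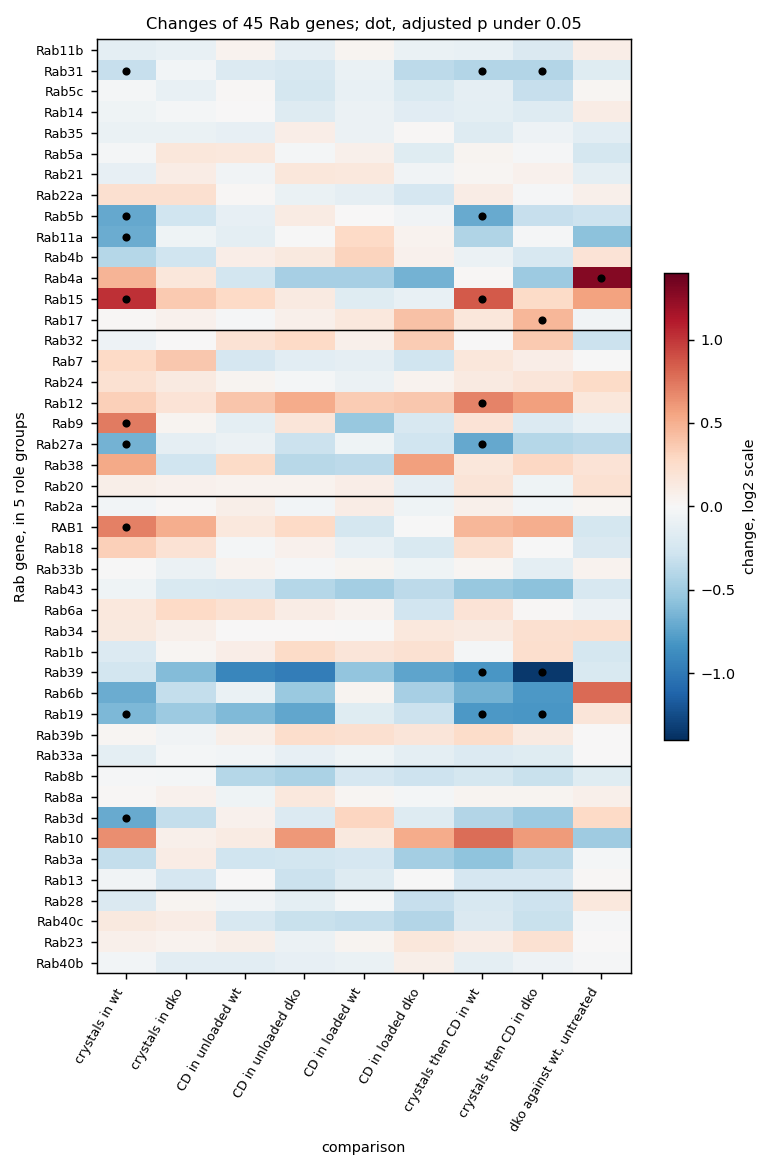
Change on the log2 scale (colour) of the 45 Rab genes (rows, in 5 role groups separated by lines) in 9 comparisons (columns), with a black dot where limma's adjusted p was under 0.05. The column for crystals in wt holds 9 dots and that for crystals in dko none, and the lowest value is that of Rab39 after crystals then CD in dko (-1.35).

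Genes that act on Rab proteins were tested in the same fit. With crystals in wt, 9 of 32 measured GTPase-activating proteins rose and none fell, where 6.89% of all genes rose and 7.11% fell, with a median change of 0.12 against -0.01 over all genes. Neither this list nor the lists below were tested against other genes. Rab3gap2, a subunit of the GTPase-activating complex of Rab3, rose by 1.31 (SE 0.18, adjusted p = 3.93e-06, limma). Tbc1d2, which acts on Rab7, rose by 1.82 (SE 0.34), Tbc1d10a, which acts on Rab27 and Rab35, by 1.13 (SE 0.21), and Tbc1d9 by 0.91 (SE 0.14). In dko, Tbc1d9 was the 1 member of this list called, with a rise of 0.75 (SE 0.16, adjusted p = 0.0136).

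Of 40 Rab effectors 7 rose and 4 fell with crystals in wt, with a median of -0.02, beside the same 6.89% and 7.11% of all genes. Rilpl2, which binds Rab proteins phosphorylated by Lrrk2, rose from a mean of 9.74 to 11.6 in wt (1.81, SE 0.17, adjusted p = 6.4e-09, limma). In dko it rose by 0.97 (SE 0.19, adjusted p = 0.00689), and with CD in unloaded dko by 0.73 (SE 0.19, adjusted p = 0.0372). The Rilpl2 call with CD was lost with median scaling, the deposited values and slide as a block. It was also lost without number 6, 7 or 8 (adjusted p up to 0.416). Optn, an autophagy receptor that binds Rab8, rose by 1.82 in wt (SE 0.22) and Rilpl1 by 1.68 (SE 0.19), while Plin3, a lipid droplet coat protein that binds Rab9, rose by 0.88 (SE 0.16). The kinase Lrrk2 fell by 0.73 in wt (SE 0.13, adjusted p = 0.000117).

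Of 36 exchange factors 4 rose and 6 fell with crystals in wt, again beside 6.89% and 7.11%. C9orf72, part of a complex with exchange activity, rose by 1.34 (SE 0.27), Dennd2a by 1.10 (SE 0.25) and Ric1, of the Rab6 exchange complex, by 0.78 (SE 0.19), while Dennd2c fell by 1.27 (SE 0.24). Among 11 escort, prenylation and GDI genes none was called, with a median of -0.11. After crystals then CD in dko, 3 effectors rose and 1 fell of 40, among them Rilpl2 (1.15, SE 0.19) and Rab11fip5 (-0.91, SE 0.27), and 3 exchange factors rose and 3 fell of 36, among them Rin2 (-1.15, SE 0.25), which acts on Rab5, where 4.07% of all genes rose and 4.02% fell. In the same cells of wt, 6 GTPase-activating proteins rose, 7 effectors rose and 6 fell, and 3 exchange factors rose and 6 fell, where 7.48% of all genes rose and 8.73% fell. CD in loaded dko cells lowered Tbc1d9 by 0.61 (SE 0.16) and Appl2, a Rab5 effector, by 0.61 (SE 0.16), and in unloaded dko cells Appl2 by 0.60 (SE 0.16). These calls were lost with median scaling, with the deposited values and with some numbers left out (without 6, 7 or 8 for Tbc1d9, adjusted p up to 0.307, and without 6, 8 or 9 for Appl2 in loaded cells, up to 0.336).

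Of 30 regulators called with crystals in wt, 14 were called with median scaling, 5 with the deposited values, and 18 whichever number was left out. The 2 called with crystals in dko, Tbc1d9 and Rilpl2, were lost without number 6, 7 or 8. Of 10 called after crystals then CD in dko, 1 was called with median scaling and 0 with the deposited values. With slide as a block 8 of them were called, without Rab11fip5 and C9orf72, and 1 whichever number was left out. Of 28 called after crystals then CD in wt, these settings gave 11, 3, 20 and 16 in the same order. The crystal effect differed between genotypes by limma's test for 0 of 32 GTPase-activating proteins, 0 of 40 effectors and 0 of 36 exchange factors. An unadjusted p under 0.05 was reached by 4, 4 and 1 of them, beside 671 of all 14416 genes. A different response to crystals in the 2 genotypes was thus not shown. In the comparisons added after seeing the data, 1 regulator was called, the exchange factor Dennd3. After crystals then CD it was higher by 0.86 in dko than wt (SE 0.16, adjusted p = 0.00357, limma), where 0.451% of all genes were called. The Dennd3 call held with slide as a block and whichever number was left out, but not with median scaling or the deposited values. Its group means were 4.35 to 5.33, near background.

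**Figure D4:**
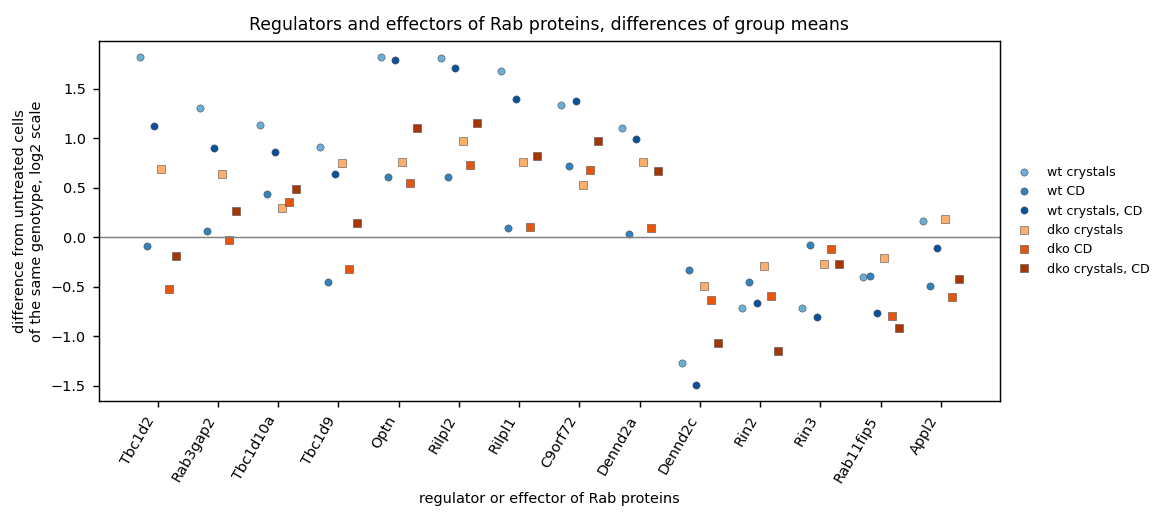
Difference of group means from untreated cells of the same genotype (vertical axis, log2 scale) for 14 regulators and effectors of Rab proteins (horizontal axis), with circles for wt and squares for dko. Optn, Rilpl2 and Tbc1d2 stand at about the same height after crystals in wt (1.82, 1.81 and 1.82).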

How the data were processed

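Total RNA was labelled as biotinylated cRNA and hybridised to 36 Illumina bead arrays, per the labels. The authors deposited an intensity and a detection p-value for each of 45281 probes on each array, without normalization as far as the values show (lowest value 69.4). The deposited series matrix held log2 of the same intensity, within 5.57e-05. The submitters' processing notes name Partek, with no version or role. The sources used here give no scanner settings.

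Intensities were corrected and quantile-normalized with neqc of limma 3.58.1 in R 4.3.3 (offset 16, log2). Probes detected at p under 0.05 on 4 or more arrays were kept (21126), and the brightest probe stood for a gene, which left 14416 genes. Symbols were updated through RefSeq gene names. One model of 8 group means was fitted with lmFit and eBayes (28 residual degrees of freedom). Replicate arrays correlated at 0.964 to 0.995, with a smallest root-mean-square difference of 0.239, so no array appeared to be a copy of another. The fit was tested on simulated data.

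The members, gene lists and tests were chosen with earlier results of these data known. Named genes were every called member, the landmark members of each compartment, the brightest 5 and dimmest 3 probes, and up to 4 called regulators per list and comparison. Of the lists, T cell, B cell, dendritic cell and osteoclast markers were measured too, with 2 of 8, 2 of 7, 2 of 7 and 5 of 7 kept. Alternatives were another offset, median scaling without background correction, the series matrix values, no and a stricter filter, and the mean of a gene's probes. Others were slide or number as a block, subsets of slides, only the groups compared, and each number left out.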

Additional observations from a re-analysis of the deposited data

Results flagged for a closer look

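In 4 of 192 groups (24 named members in 8 groups), 1 array stood far from the rest by Dixon's criterion, where chance alone picks out about 1 in 20 groups. Rab17, close to the detection limit, read 4.647 on the wt crystal array of number 4, with the next at 4.338. Rab19 read 5.539 on the wt CD array of number 2, with the next at 4.751. Rab33a, a dim probe, read 4.877 on the wt CD array of number 1, with the next at 4.523. Rab5b read 7.895 on the dko CD array of number 8, with the next at 8.019.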

How the results depend on the processing

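The number of called members, 9 for crystals in wt, was 3 with median scaling, 0 with the deposited log2 values, 0 on slides shared by both genotypes (2 wt arrays per group) and 2 to 9 with 1 array number left out. With slide as a block it was 8, without Rab19 and Rab31 and with Rab38. The 7 for crystals then CD in wt became 3, 0 and 0 in that order, and 11 with the mean of a gene's probes (also RAB1, Rab3a, Rab43 and Rab7). With slide as a block they became 3 (Rab27a, Rab31 and Rab5b), and 4 to 7 with a number left out. The 4 for crystals then CD in dko became 0 with median scaling, 0 with the deposited values, 2 without a filter, 2 with only the groups compared and 0 to 2 with a number left out. Without any member called otherwise, crystals in dko gave 1 on shared slides (RAB1). CD in unloaded wt gave 1 (Rab8b) with the mean of probes, with slide as a block and with Xist signal as a block. CD in unloaded dko gave 1 with an offset of 50, with Xist signal as a block, on shared slides and at most with a number left out (0 to 1).

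For dko against wt untreated, the 1 call (Rab4a) became 0 with median scaling and with the deposited values, 0 to 1 with a number left out, and 2 (Rab4a and Rab6b) with slide as a block and on shared slides. The wt arrays that share slides with dko arrays are those of numbers 4 and 5 only. In the comparisons added after seeing the data, crystals gave 1 with an offset of 50, 3 with slide as a block (Rab10, Rab4a and Rab6b), 2 with Xist signal as a block, 1 on shared slides and 0 to 1 with a number left out. CD went from 1 to 0 with median scaling, the deposited values, no filter and only the groups compared, and gave 0 to 1 with a number left out. Crystals then CD gave 1 (Rab6b) with slide as a block. Of 22 called changes none reversed under any setting run. The cause of these differences was not tested, apart from the smaller number of arrays where arrays were left out.

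With the array number as a replicate block, called members were 12 for crystals in wt (also Rab10, Rab38 and Rab4b), 11 for crystals then CD in wt (also RAB1, Rab10, Rab3a and Rab3d), 6 for crystals then CD in dko (also RAB1 and Rab3d) and 3 (Rab19, Rab39 and Rab8b) for CD in unloaded dko, and the 20 calls that could be tested were kept. The block could not be fitted for genotype, since wt and dko share no number. The numbers are not taken as pairs: residuals of same-numbered arrays correlated above 0.1 in 27 of 30 wt pairs but 10 of 24 dko pairs, and 16 of 20 wt and 0 of 16 dko arrays matched their own number best.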
